A study of Mus musculus with 5 samples.

Results

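The genes described here encode subunits of the mitochondrial oxidative phosphorylation machinery. They were taken by name from the platform annotation, as every gene whose probe set carries exactly 1 symbol that begins with Ndufa, Ndufb, Ndufc, Ndufs, Ndufv, Sdha, Sdhb, Sdhc, Sdhd, Uqcr, Cox4, Cox5, Cox6, Cox7, Cox8 or Atp5. The rule uses names alone. It gave 100 probe sets (groups of short oligonucleotides for 1 transcript) of 73 genes, out of 8251 genes with such a probe set on the array. Each gene is represented by its brightest probe set (by mean log2 value), and 20 of the genes had more than 1. By complex, there were 29 genes of complex I, 4 of complex II, 7 of complex III, 15 of complex IV and 14 of the ATP synthase. The prefixes also caught 4 assembly factors, Ndufaf1, Ndufaf4, Sdhaf1 and Sdhaf2, which help to build complexes I and II and are no subunits of them. Another 10 probe sets were left out because the annotation gives them several symbols.

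RNA labelled as murine lung was measured on 5 Affymetrix mouse arrays. A/J mice, an inbred strain, had received saline into the trachea (2 arrays) or IL-13 by the same route (3 arrays). IL-13 is a type 2 cytokine, and the series asks about goblet cells, which make airway mucus. Each title carries a number without a unit (6 or 48 after saline, and 6, 18 or 48 after IL-13), and arrays are called here by treatment plus that number. Where a sentence gives 2 values for the saline arrays, they stand in the order 6, 48, and IL-13 values in the order 6, 18, 48. The labels give no age, no sex and no genetic change. They state neither how many animals lie behind an array nor whether the animals differ, so a p-value covers only the scatter among these 5 arrays, which may be technical. No combination of treatment and title number has a replicate.

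Oxidative phosphorylation turns the energy of nutrients into ATP in the inner membrane of mitochondria. Complex I takes electrons from NADH and complex II takes them from succinate. Complex III passes them to cytochrome c and complex IV, cytochrome c oxidase, passes them to oxygen. Complexes I, III and IV pump protons across the membrane, and the ATP synthase lets them flow back to make ATP. Heart, skeletal muscle and brown fat are rich in mitochondria, and in muscle and brown fat some subunits of complex IV are replaced by tissue-specific forms, among them Cox6a2, Cox7a1 and Cox8b.

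The values are the authors' intensities on a linear scale, whose median over 12422 probe sets lay between 324.4 and 358.4 on the 5 arrays. Of the labelled tissue's markers, Scgb1a1 of club cells read 22020 to 31030 on all 5 arrays and Lyz2 of macrophages 10720 to 15060. The alveolar gene Sftpc read 2617 on saline 6, 17170 on IL-13 18 and 194.2 to 300.4 on the other 3 arrays. Genes of other tissues were bright as well. Of 12 measured skeletal muscle markers out of 13 listed, only Myh2 was below the floor of 55.3 on any array (on 4 of them), and their summed intensity was 124200 to 163700 with saline and 135200 to 163700 with IL-13. The 4 brown fat markers summed to 26340 on saline 6, 12790 on saline 48 and 10330 to 11910 with IL-13. The 11 measured of 12 heart atrium markers summed to 43280 on saline 6, 24210 on saline 48 and 25450 to 34230 with IL-13. On saline 48, Actc1 (9835) and Myl3 (12300) made up most of that sum. Of 9 passing the filter given below, 8 were lower on saline 48 than on saline 6 (median log2 difference -2.67). The 7 salivary gland markers summed to 101100 on saline 6 and to 574.2 to 888.9 on the other arrays, where 4 or 5 of the 7 were below the floor. In bulk RNA, fewer cells of a type and less RNA per cell cannot be told apart.

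The subunit genes were brightest on the array saline 6, and this was the largest shared pattern among them. Of the 66 subunit genes that passed the filter (above an intensity of 210 on at least 2 of 5 arrays), 49 had their highest value on saline 6, which is 74.2% beside 22.1% of the 5980 genes tested. Only 4 were lowest there, or 6.06% beside 32.4%. The lowest value was on saline 48 for 25 of the 66 (37.9% beside 17.5%) and on IL-13 18 for 23 (34.8% beside 17.3%). Relative to each gene's mean over the 5 arrays, the median of the subunit genes stood at 0.27 on the log2 scale on saline 6, at -0.12 on saline 48, at 0.02 on IL-13 6, at -0.09 on IL-13 18 and at -0.05 on IL-13 48. The same medians over all genes tested lay between -0.04 and 0.02. The subunit genes are bright, so bright genes as a whole were also looked at. The 49 subunit genes at or above a mean log2 value of 10.99 had a median of 0.33 on saline 6, and the other 1168 tested genes at or above it had -0.02.

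**Figure D1:**
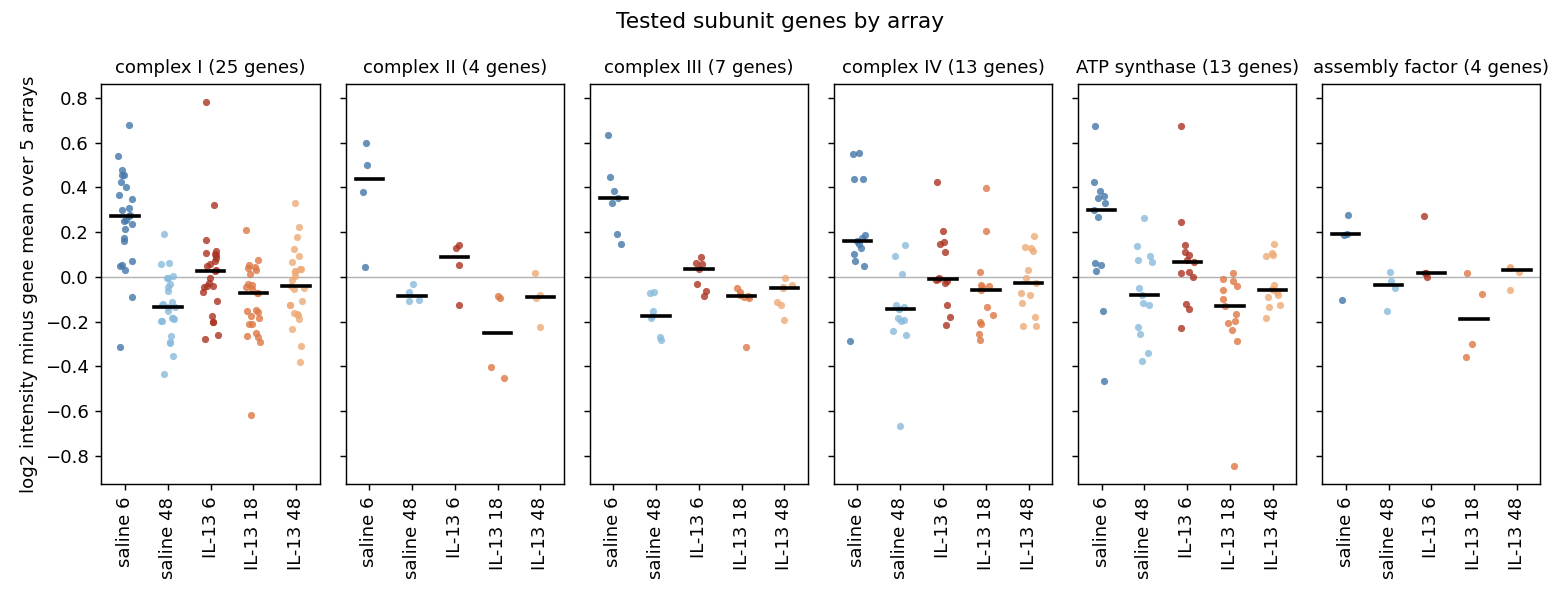
Each point is 1 tested gene on 1 array, as its log2 intensity minus its own mean over the 5 arrays, in a panel for each complex, and the black bars are medians. The medians on saline 6 (0.16 to 0.44) lie above those of every other array in all 6 panels, and the points of the other 4 arrays overlap.

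Saline 48 read lower than saline 6 for 59 of the 66 tested subunit genes, beside 44.3% of all genes tested. The median log2 difference between these 2 control arrays was -0.40 (0.06 over all genes tested). The fold was below 2 in all 66. At least 2-fold differences were found in 2.81% of all tested genes toward lower and 3.28% toward higher values on saline 48. The median was -0.41 for complex I (23 of 25 lower), -0.53 for complex II (4 of 4), -0.51 for complex III (7 of 7), -0.31 for complex IV (13 of 13) and -0.41 for the ATP synthase (9 of 13). Since the pair holds 1 array a side, it has no test. With quantile normalization, which gives every array the same distribution of values, the median was -0.29 and 56 of 66 were lower.

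IL-13 and saline arrays were compared in 1 fit over 7811 probe sets (lmFit and eBayes of limma, two-sided, Benjamini-Hochberg adjustment, threshold 0.05), to ask which subunit genes differ in level after IL-13. None of the 66 tested subunit genes passed, and 4 probe sets passed in all (0.0512%). At an unadjusted p under 0.05 there were 3 subunit genes of 66 (4.55%), beside 8.34% of all genes tested and 9.26% of all probe sets tested. The lowest adjusted p of a subunit gene was 0.361. The median log2 difference of IL-13 minus saline was -0.12, with 52 genes lower and 14 higher, while over all genes tested it was 0.03 and 45.8% were lower. The median standard error (SE) of the difference of a subunit gene was 0.20.

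The direction of this median rested on saline 6. Without that array the median was 0.04, with 46 of 66 genes higher, and without saline 48 it was -0.31, with 58 lower. None passed in either case. All 3 IL-13 arrays lay below both saline arrays for 9 of the 66 genes, 13.6% beside 11.4% of all genes tested. They lay above both for 2, or 3.03% beside 14.0%. The 9 were Atp5d, Atp5e, Ndufb11, Ndufb6, Ndufa6, Ndufb8, Sdhb, Cox7a2l and Cox7b, and the 2 were Cox6b1 and Atp5g1.

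**Figure D2:**
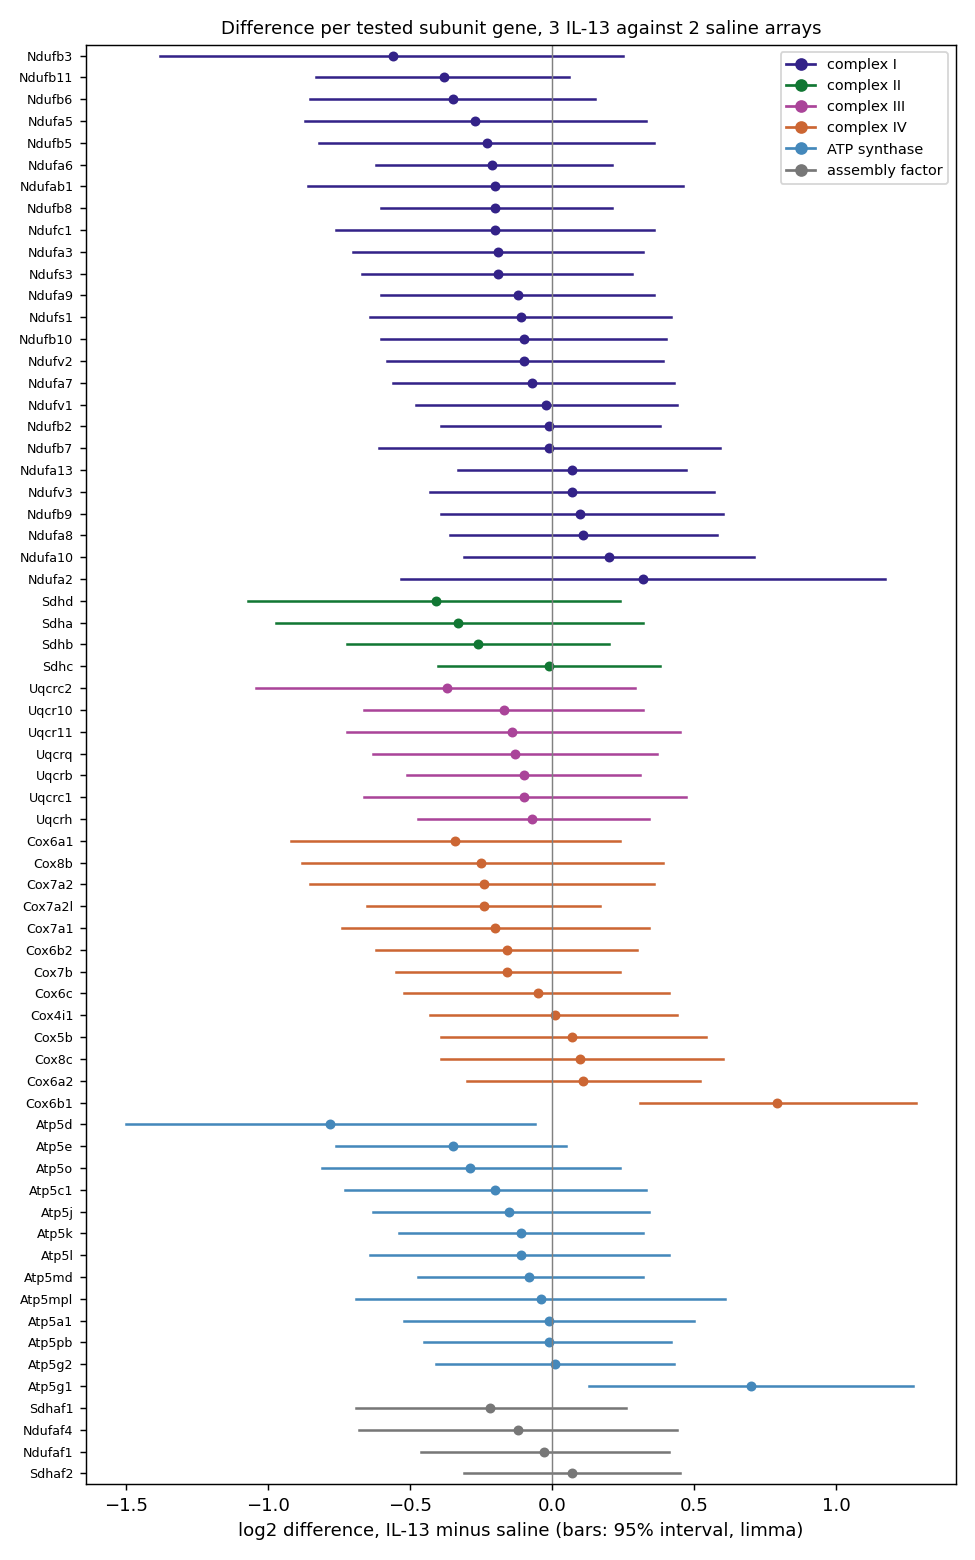
Each row is 1 of the 66 tested genes, with its log2 difference of 3 IL-13 minus 2 saline arrays as a point and its 95% interval from limma as a bar, coloured by complex. The intervals of Cox6b1 and Atp5g1 lie above 0 and that of Atp5d lies below it, but no gene passed after adjustment over all probe sets.

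The 2 matched pairs, each of 1 array against 1 with no test, pointed in opposite directions. On IL-13 6 the subunit genes read lower than on saline 6 in 56 of 66 cases, with a median log2 difference of -0.27 (0.04 over all genes tested). On IL-13 48 they read higher than on saline 48 in 44 of 66, with a median of 0.06 (0.01 over all). The 2 pairs share no array. Genes lower at title number 6 and higher at 48 made up 38 of 66, or 57.6%, beside 21.1% of all genes tested. Among genes at least 2-fold apart, Atp5g1 was the only subunit gene, higher at 6. Of all genes tested, 3.73% were that much higher and 3.66% that much lower at 6, and 1.32% and 2.09% at 48. The third IL-13 array, IL-13 18, read lower than the mean of both saline arrays for 53 of 66, with a median of -0.17. Over all genes tested 46.6% were lower and the median was 0.03. That saline mean includes saline 6. Relative to each gene's own mean over the arrays, the median of the subunit genes was -0.09 on IL-13 18 and -0.12 on saline 48.

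**Figure D3:**
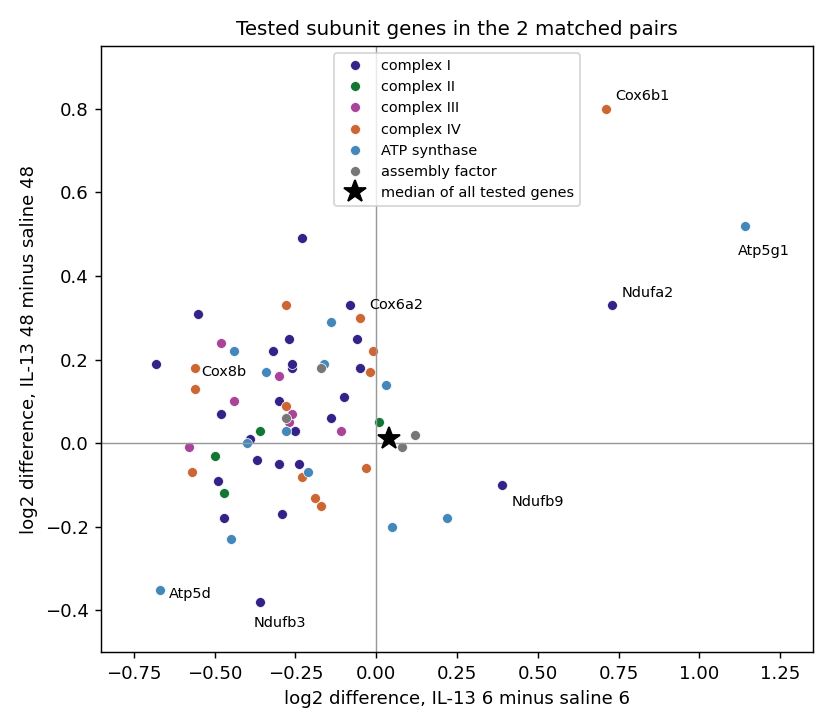
Each point is 1 tested gene, with its log2 difference in the pair of title number 6 on the horizontal axis and in the pair of title number 48 on the vertical axis; the star is the median of all tested genes (0.04 and 0.01). Most points lie left of 0, and Cox6b1, Atp5g1 and Ndufa2 stand apart at the upper right.

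Between the IL-13 arrays the gap was smaller. IL-13 48 read lower than IL-13 6 for 42 of 66 subunit genes, with a median of -0.07, while over all genes tested 47.3% were lower and the median was 0.02. Both arrays of title number 6 lay above the other 3 for 30 of 66 (10.8% of all genes tested) and below them for 2 (16.3%). That count includes saline 6, on which 49 of the 66 were highest. In a fit with treatment and title number 6 as terms, which was chosen after these values had been seen, the median difference of title number 6 minus later numbers was 0.23 for the subunit genes and -0.04 for all genes tested. By limma no subunit gene passed in that fit (lowest adjusted p 0.466), as no probe set did (0%). At an unadjusted p under 0.05 there were 8 of 66 subunit genes, beside 531 of the 5980 genes tested and 8.91% of probe sets.

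Complex I, the largest complex, showed the shared pattern in most of its 25 tested genes, 20 of which were brightest on saline 6. Ndufv1 and Ndufs1 belong to its NADH-oxidizing arm. Ndufv1 read 12900 and 9785 on the saline arrays and 10340, 11460 and 11410 on the IL-13 arrays. The 3 IL-13 values lay between the 2 saline values, and the log2 difference was -0.02 (SE 0.19, limma adjusted p 0.975). Ndufs1 read 5368 and 4046 on the saline arrays and 3669, 4333 and 5031 on the IL-13 arrays, so the groups overlapped (-0.11, SE 0.22). The accessory subunit Ndufab1, the mitochondrial acyl carrier protein, read 9192 and 5139 on the saline arrays and 6581, 6000 and 5378 on the IL-13 arrays. Its saline arrays were 1.79-fold apart, the widest gap between them among the tested subunit genes, and all IL-13 values lay inside it.

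Of the accessory subunits of complex I, Ndufb3 had the lowest difference of IL-13 minus saline. It read 4460 and 2778 on the saline arrays and 3476, 1814 and 2141 on the IL-13 arrays (-0.56, SE 0.34, adjusted p 0.675). Both arrays of title number 6 were above the other 3, and the treatments overlapped. Without saline 6 the difference was -0.22, without saline 48 it was -0.91, without IL-13 6 -0.84 and without IL-13 18 -0.37. Ndufa2 had the highest. It read 2455 and 1759 on the saline arrays and 4084, 1938 and 2205 on the IL-13 arrays (0.32, SE 0.35, adjusted p 0.816). Only IL-13 6 was above saline 6, and without IL-13 6 the difference was -0.01. Ndufb11 read 7671 and 6059 on the saline arrays and 5542, 4831 and 5337 on the IL-13 arrays, with every IL-13 array lower (-0.38, SE 0.19, adjusted p 0.596). Ndufb9 was an exception to the shared pattern, since its lowest value, 4843, was on saline 6, beside 6875 on saline 48 and 5824 to 6430 with IL-13.

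The other tested genes of complex I differed by log2 values from -0.35 (Ndufb6) to 0.20 (Ndufa10). They were Ndufa3, Ndufa5, Ndufa6, Ndufa7, Ndufa8, Ndufa9, Ndufa10, Ndufa13, Ndufb2, Ndufb5, Ndufb6, Ndufb7, Ndufb8, Ndufb10, Ndufc1, Ndufs3, Ndufv2 and Ndufv3. Second tested probe sets gave -0.46 for Ndufa3 (beside -0.19), -0.11 for Ndufb2 (beside -0.01) and 0.27 for Ndufv2 (beside -0.10). Ndufa1, Ndufa12, Ndufc2 and Ndufs4 were too dim to be tested. Ndufa1 read 245.3 on saline 6 and 89.23 to 154.0 on the other arrays. Ndufa12 was below the floor on saline 48 (19.7) and read 80.9 to 109.3 elsewhere. Of the assembly factors, Sdhaf1 had a difference of -0.22, Ndufaf4 of -0.12, Ndufaf1 of -0.03 and Sdhaf2 of 0.07.

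Complex II, succinate dehydrogenase, also belongs to the citrate cycle, and its 4 subunits had a median log2 difference of -0.29 between IL-13 and saline. The membrane anchor Sdhd had the lowest, reading 8965 and 5511 on the saline arrays and 6476, 4475 and 5058 on the IL-13 arrays (-0.41, SE 0.27, adjusted p 0.702). IL-13 6 lay between the saline arrays and the other IL-13 arrays below both. Without saline 6 the difference was -0.06, and without saline 48 it was -0.77. The flavoprotein Sdha read 2263 and 1484 on the saline arrays and 1767, 1172 and 1512 on the IL-13 arrays (-0.33, SE 0.27). The iron-sulfur subunit Sdhb read 9318 and 6840 on the saline arrays and 6571, 6707 and 6719 on the IL-13 arrays, with no overlap (-0.26, SE 0.19, adjusted p 0.729). The other anchor, Sdhc, hardly varied, from 7342 to 8076 over the 5 arrays.

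All 7 genes of complex III had their highest value on saline 6, and 5 of them their lowest on saline 48 (17.5% of all genes tested). The core subunit Uqcrc2 read 9142 and 5190 on the saline arrays and 6136, 4747 and 5156 on the IL-13 arrays (-0.37, SE 0.28, adjusted p 0.729). Its partner Uqcrc1 read 9321 and 5925 on the saline arrays and 7596, 6688 and 6605 on the IL-13 arrays (-0.10, SE 0.23). In both genes saline 6 stood alone at the top. Uqcrb, Uqcrh, Uqcrq, Uqcr10 and Uqcr11, small subunits, had differences from -0.17 to -0.07.

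In the ATP synthase, 11 of 13 tested genes had a lower mean after IL-13 and the median was -0.11. Atp5a1, the alpha subunit of the catalytic head, read 18850 and 13090 on the saline arrays and 16900, 15000 and 14940 on the IL-13 arrays, all inside the saline range (-0.01, SE 0.21). Atp5d, the delta subunit of the central stalk, read 2634 and 1980 on the saline arrays and 1650, 919.2 and 1551 on the IL-13 arrays, with no overlap. Its difference was -0.78 (SE 0.30, adjusted p 0.531), and it was -0.51 without IL-13 18. That value is from a probe set with the ending _f_at, which marks probes that may be shared with related transcripts. Among the 3 other tested probe sets of Atp5d, those with the same ending gave -0.13 and -0.14. The remaining one, without that ending and dimmer (248.6 to 394.6), gave 0.32 (SE 0.22), with every IL-13 array above both saline arrays. Atp5e, the epsilon subunit, read 4606 and 3905 on the saline arrays and 3365, 3267 and 3333 on the IL-13 arrays (-0.35, SE 0.17, adjusted p 0.589), again with no overlap.

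Subunit c, which forms the rotating ring of the ATP synthase, is encoded by several genes that give the same mature protein. Atp5g1 read 157.2 and 167.4 on the saline arrays and 346.7, 219.8 and 240.4 on the IL-13 arrays. Every IL-13 array was higher, and the pair at title number 6 was 2.21-fold apart. The difference was 0.70 (SE 0.24, adjusted p 0.490). The gene is dim, with a floor of 210 in place of 55.3 the difference was 0.33, and a second probe set read 140.7 to 180.4 on all 5 arrays with the groups overlapping. Atp5g2 read 1768 and 2163 on the saline arrays and 2059, 1938 and 1916 on the IL-13 arrays, with overlap (0.01, SE 0.17). That probe set has the ending _f_at, described above for Atp5d. A second probe set of Atp5g2, too dim to be tested, read 95.95 and 67.64 on the saline arrays and 199.4, 103.4 and 140.6 on the IL-13 arrays. There every IL-13 array was higher, by 2.08-fold in both pairs.

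The remaining tested genes of the ATP synthase were Atp5c1, Atp5j, Atp5k, Atp5l, Atp5md, Atp5mpl, Atp5o and Atp5pb, with differences from -0.29 (Atp5o) to -0.01 (Atp5pb). Atp5l has a second probe set that disagreed with the first. The brighter one read 15070 on saline 6 and 10040 on saline 48, and the dimmer, with the ending _f_at, read 96.83 and 191.7. On the IL-13 arrays the dimmer one read 166.1, 329.0 and 318.3, with overlap. Its difference of IL-13 minus saline was 0.93 (SE 0.41), beside -0.11 for the brighter one. Atp5j2 was too dim to be tested, at 80.5 to 145.4.

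Complex IV held the subunit gene with the lowest adjusted p. Cox6b1, a small subunit on the outer side of the inner membrane, read 278.8 and 214.2 on the saline arrays and 456.3, 448.7 and 372.2 on the IL-13 arrays. Every IL-13 array was higher, 1.64-fold at title number 6 and 1.74-fold at 48. The difference was 0.79 (SE 0.20, limma adjusted p 0.361), and leaving out 1 array gave 0.60 to 0.99. Its only probe set has the ending _r_at, given to sets chosen under relaxed rules. The testis form Cox6b2 read 418.6 and 415.5 on the saline arrays and 344.7, 338.5 and 443.0 on the IL-13 arrays, with overlap.

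The widely expressed subunits of complex IV showed the common pattern to different degrees. Cox4i1 read 833.0 and 694.3 on the saline arrays and 822.5, 693.6 and 780.0 on the IL-13 arrays, with overlap (0.01, SE 0.18). That probe set has the ending _f_at, as does that of Cox6c below. A second, dimmer probe set of Cox4i1 read 212.3 and 200.4 on the saline arrays and 225.7, 289.2 and 250.2 on the IL-13 arrays, each of them higher (0.30, SE 0.18, adjusted p 0.677). Cox5b read 8348 and 6318 on the saline arrays and 8278, 7294 and 7350 on the IL-13 arrays (0.07, SE 0.19). Cox6c read 18030 and 14520 on the saline arrays and 17620, 15360 and 13970 on the IL-13 arrays (-0.05, SE 0.19). In Cox5b, Cox6c and the brighter probe set of Cox4i1 both arrays of title number 6 were above the other 3. Cox7a2l, which joins complexes III and IV into larger assemblies, read 3284 and 3278 on the saline arrays and 2913, 2488 and 2961 on the IL-13 arrays (-0.24, SE 0.17, adjusted p 0.721). The saline arrays were alike here and every IL-13 array was lower. Cox7b differed by -0.16. The testis form Cox8c read 1815 and 1511 on the saline arrays and 1491, 1991 and 1900 on the IL-13 arrays, with overlap (0.10, SE 0.20). Cox5a was too dim to be tested, at 54.33 to 102.3.

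The muscle forms of complex IV were bright on all 5 arrays, whatever the treatment. Cox6a2, the heart and skeletal muscle form of subunit 6a, read 10320 and 8804 on the saline arrays and 9969, 10150 and 10810 on the IL-13 arrays. The groups overlapped, the highest value was only 1.23-fold above the lowest, and the difference was 0.11 (SE 0.17, 95% interval -0.30 to 0.52). Cox7a1 read 5067 and 3262 on the saline arrays and 3432, 3628 and 3560 on the IL-13 arrays (-0.20, SE 0.23, -0.74 to 0.34). Cox8b read 11660 and 6634 on the saline arrays and 7895, 6865 and 7514 on the IL-13 arrays (-0.25, SE 0.26, -0.88 to 0.39). Its probe set, like that of Cox6b1, has the ending _r_at. In Cox7a1 and Cox8b saline 6 stood above the other 4 arrays, which lay close together. A second probe set of Cox8b had the same order of saline arrays (2446 and 1261) with 1258 to 1331 after IL-13. Without saline 6 the differences of Cox7a1 and Cox8b were 0.12 and 0.16.

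Of the widely expressed partners of these forms, Cox6a1 and Cox7a2 had their highest values on saline 6, as Cox7a1 and Cox8b did. Cox6a1 read 20670 and 12750 on the saline arrays and 13930, 12530 and 12120 on the IL-13 arrays (-0.34, SE 0.24, -0.92 to 0.24). Cox7a2 read 11710 and 7848 on the saline arrays and 9967, 7131 and 7445 on the IL-13 arrays (-0.24, SE 0.25, -0.85 to 0.36). Both differences were near 0 without saline 6 (0.01 and 0.04). Cox8a read 38.96 and 24.46 on the saline arrays and 73.71, 59.08 and 42.01 on the IL-13 arrays, and lay below the floor on 3 of the 5 arrays, so it gives no change to set against Cox8b.

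Changes across arrays were set against each other within 2 isoform pairs, as the log2 ratio of muscle form to partner relative to its mean over the arrays. For Cox6a2 over Cox6a1 that ratio was -0.50 on saline 6, -0.04 on saline 48, and 0.01, 0.19 and 0.33 on IL-13 6, 18 and 48. All IL-13 arrays were above both saline arrays, though IL-13 6 only narrowly exceeded saline 48. The 2 saline arrays themselves differed by 0.47. The probe set of Cox6a1 has the ending _f_at, described above for Atp5d. The treatment means differed by 0.45, and the exact permutation test (two-sided, as double the one-sided p) gave p = 0.20 (0.40 adjusted over the 2 pairs). That is the smallest p this test allows for 2 against 3 arrays. It could not fall under 0.05, so it cannot decide whether the ratio differs. For Cox7a1 over Cox7a2 the ratio was 0.00 and -0.06 on the saline arrays, beside -0.33, 0.24 and 0.15 on the IL-13 arrays. These groups overlapped (difference 0.04, exact permutation p = 1.0).

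**Figure D4:**
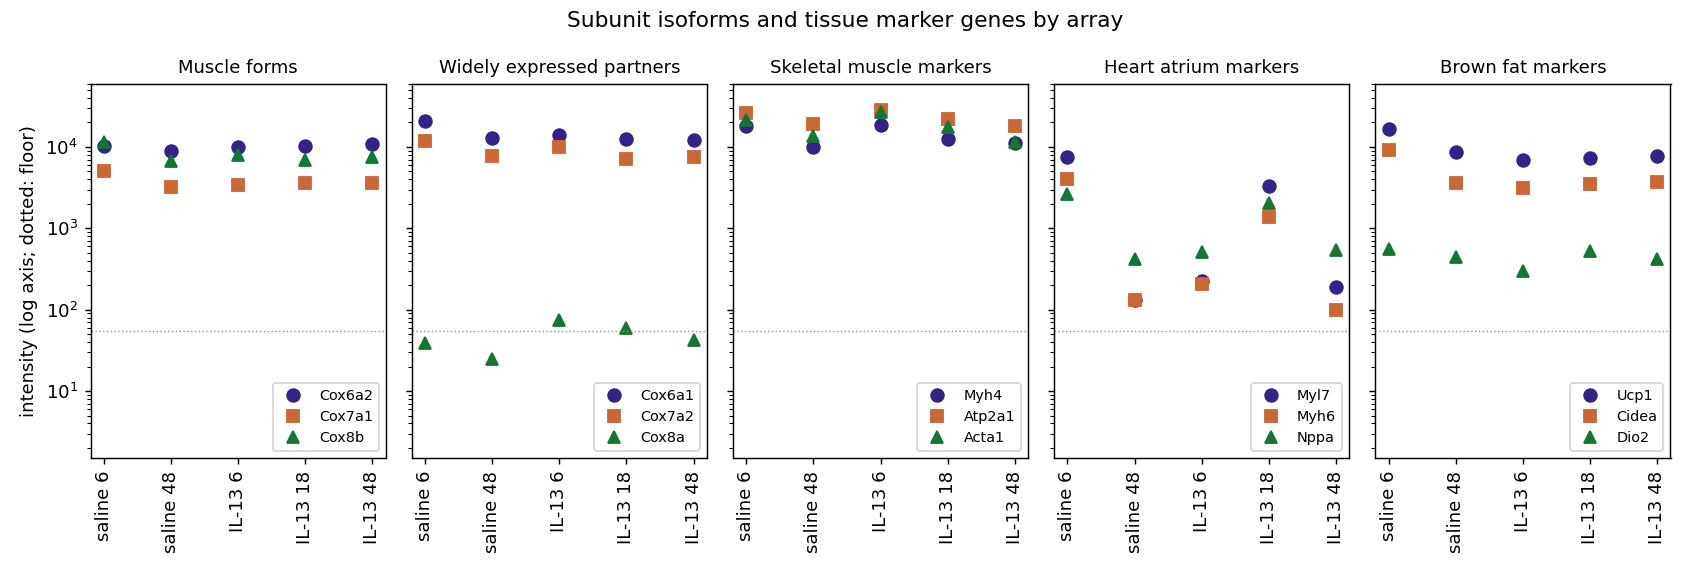
Intensity on a log axis for 3 muscle forms of complex IV, their partners, and 3 marker genes each of skeletal muscle, heart atrium and brown fat, by array; the dotted line is the floor of 55.3. Cox6a2, Cox7a1 and Cox8b stay bright on all 5 arrays, as do the 3 skeletal muscle markers shown. Myl7 and Myh6 are bright on saline 6 and IL-13 18 only. The skeletal muscle markers shown are the 3 of 11 tested with both arrays of title number 6 above the other 3. Of markers not shown, Actc1 and Myl3 were highest on IL-13 6 and Elovl3 on IL-13 18.

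Marker genes of mitochondria-rich tissues moved with these values in part, and their part in the result was not tested. Ucp1, the uncoupling protein of brown fat, read 16470 and 8702 on the saline arrays and 6897, 7216 and 7776 on the IL-13 arrays. Cidea, also of brown fat, read 9236 and 3580 on the saline arrays and 3124, 3465 and 3669 on the IL-13 arrays. For Ucp1 and Cidea saline 6 was, as for Cox8b, above the other 4 arrays. The other 2 listed brown fat markers showed this less or not at all. Dio2 read 556.5 on saline 6 and 527.7 on IL-13 18. Elovl3, below the floor on 2 arrays, was highest on IL-13 18 (93.03, beside 70.3 on saline 6). Myl7, a myosin light chain of the heart atrium, read 7554 and 129.9 on the saline arrays and 224.8, 3322 and 192.3 on the IL-13 arrays. Of the 9 tested heart atrium markers, 7 were highest on saline 6, but Actc1 and Myl3 were highest on IL-13 6, and Myl3 was lowest on saline 6. The skeletal muscle myosin Myh4 read 17970 and 10040 on the saline arrays and 18670, 12610 and 11170 on the IL-13 arrays, and both arrays of title number 6 were above the other 3. This held for 3 of the 11 tested skeletal muscle markers (Acta1, Myh4 and Atp2a1). Of the 11, 3 were highest on saline 6, 4 on IL-13 6 and 4 on IL-13 48, and Myh1 stayed between 17100 and 20340. None of the marker genes passed the test. The 5 measured of 6 T cell markers were lower on average after IL-13, and summed to 5835 and 6861 on the saline arrays and 1609, 2669 and 665.1 on the IL-13 arrays (lowest limma adjusted p 0.185). The 5 measured of 7 white fat markers summed to 14200 and 8820 on the saline arrays and 8955, 7775 and 7126 on the IL-13 arrays. Of these 5, 4 were highest on saline 6, but Lep was lowest there (931.7) and highest on IL-13 6 (1948).

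The promoters of Cox6a1, Cox7a2, Cox7a1 and Cox8b are shown to set start regions of widely expressed and muscle forms side by side, though only Cox7a1 and Cox7a2 make a complete pair (Cox6a2 and Cox8a are not shown), and that of Sdha because it held the most matches to the nuclear respiratory factor NRF1. Of the 73 genes, 60 have an entry in the promoter table of RefSeq (GRCm38.p6). The 250 bases before the start were searched on both strands for 5 short motifs. They were the NRF1 core (a pair of GCGC blocks spaced by 2 free bases), CCGGAAG (GABP and other ETS factors), AAGGTCA (estrogen-related receptors), ATGGCGG (YY1) and the MEF2 core (an AT-rich palindrome with 4 free bases). Matches are in capitals, written 5′ to 3′ toward the start.
Cox6a1 (chr5:115348959-115349208, minus strand): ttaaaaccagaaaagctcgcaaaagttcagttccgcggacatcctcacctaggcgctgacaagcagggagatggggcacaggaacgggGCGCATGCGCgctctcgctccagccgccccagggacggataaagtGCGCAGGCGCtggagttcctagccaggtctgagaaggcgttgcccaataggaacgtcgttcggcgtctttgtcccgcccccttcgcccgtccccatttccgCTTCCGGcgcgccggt
Cox7a2 (chr9:79759854-79760103, minus strand): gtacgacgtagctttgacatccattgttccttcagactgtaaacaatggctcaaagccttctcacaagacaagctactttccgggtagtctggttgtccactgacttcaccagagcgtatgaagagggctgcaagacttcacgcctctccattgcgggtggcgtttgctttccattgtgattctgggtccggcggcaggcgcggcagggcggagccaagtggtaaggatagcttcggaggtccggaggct
Cox7a1 (chr7:30183921-30184170, plus strand): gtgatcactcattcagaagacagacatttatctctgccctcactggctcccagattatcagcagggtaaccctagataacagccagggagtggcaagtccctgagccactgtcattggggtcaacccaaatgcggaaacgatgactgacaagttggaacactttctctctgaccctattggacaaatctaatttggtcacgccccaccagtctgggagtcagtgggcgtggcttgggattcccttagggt
Cox8b (chr7:140900447-140900696, minus strand): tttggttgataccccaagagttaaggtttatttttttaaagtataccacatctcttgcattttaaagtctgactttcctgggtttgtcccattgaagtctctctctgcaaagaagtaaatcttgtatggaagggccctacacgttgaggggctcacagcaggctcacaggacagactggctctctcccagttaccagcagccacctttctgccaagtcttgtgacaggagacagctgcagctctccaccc
Sdha (chr13:74350241-74350490, minus strand): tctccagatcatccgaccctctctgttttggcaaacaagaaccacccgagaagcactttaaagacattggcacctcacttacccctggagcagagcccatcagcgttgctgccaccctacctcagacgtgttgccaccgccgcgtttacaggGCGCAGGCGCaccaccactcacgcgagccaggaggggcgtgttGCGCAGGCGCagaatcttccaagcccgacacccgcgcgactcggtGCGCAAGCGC

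Cox6a1 had 2 matches to the NRF1 letters and 1 to the ETS letters, and Sdha had 3 to the NRF1 letters. Cox7a1, Cox7a2 and Cox8b had 0. CG dinucleotides numbered 4 in Cox7a1 and 1 in Cox8b, beside 26 in Cox6a1 and 14 in Cox7a2. Over the 60 promoters the median was 14.0, and over all 27025 promoters in the table it was 6.0. The NRF1 letters occurred in 10 of 60 (16.7%, beside 5.09% of all promoters) and the ETS letters in 12 (20%, beside 7.05%). The YY1 letters occurred in 4 (6.67%, beside 2.19%), the letters for estrogen-related receptors in 2 (3.33%, beside 4.05%) and the MEF2 letters in 1, Cox5b (1.67%, beside 3.23%). The NRF1 letters are rich in CG, as are these promoters. A match describes letters only.

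Other mitochondrial genes were taken from lists by function, and no member of any list passed the limma test of IL-13 against saline. Fatty acid oxidation genes, which feed electrons to the chain, were brightest on saline 6 in 10 of 13 cases. Of 13 tested, 12 were lower on saline 48 than on saline 6 (44.3% of all genes tested), with a median of -0.60. Acadm, the medium-chain acyl-CoA dehydrogenase, read 15050 and 7081 on the saline arrays and 8911, 6111 and 6843 on the IL-13 arrays, highest on saline 6. After IL-13, 12 of the 13 had a lower mean and 1 a higher one (median -0.32, lowest adjusted p 0.625). The lowest difference was in Acadl (-0.53) and the highest in Acads (0.13).

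Genes of pyruvate dehydrogenase and the citrate cycle followed the same order of saline arrays. Of 15 tested, 14 were lower on saline 48 (median -0.33), beside 44.3% of all genes tested. Citrate synthase, Cs, read 9314 and 6829 on the saline arrays and 6822, 6507 and 7447 on the IL-13 arrays, again highest on saline 6. Between treatments 9 were lower and 6 higher (median -0.02, lowest adjusted p 0.673), from Suclg1 at -0.39 to Dlst at 0.25. Assembly and maturation factors had 5 tested genes with a median of -0.12, 4 lower and 1 higher (lowest adjusted p 0.742), from Phb2 at -0.37 to Cox18 at 0.11.

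Among cytochrome c and the carriers and pores of the mitochondrial membranes, 3 of 7 tested genes were lower on saline 48 than on saline 6. That is near the 44.3% of all genes tested, and the median was 0.00. The median treatment difference was 0.12, with 5 higher and 2 lower (lowest adjusted p 0.677). Cytochrome c itself, Cycs, read 2356 and 1777 on the saline arrays and 1753, 1838 and 1944 on the IL-13 arrays (-0.15). The phosphate carrier Slc25a3 had the highest difference (0.87, SE 0.67) and read 68.13 on saline 48 beside 274.8 to 401.4 elsewhere.

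Regulators of mitochondrial genes had lower means after IL-13 in 6 of 6 tested genes, none past the threshold (median -0.13, lowest adjusted p 0.696). The lowest was the nuclear receptor Ppara (-0.35) and the highest Gabpb1 (-0.02), a subunit of GABP. Esrra, an estrogen-related receptor, read 2076 and 1543 on the saline arrays and 1737, 1651 and 1612 on the IL-13 arrays. Of the regulators, Ppargc1a, a coactivator of mitochondrial genes, and Tfam, which packs mitochondrial DNA, were too dim to be tested. In the list of uncoupling and inhibitor genes Ucp1 had the lowest difference (-0.72, SE 0.28, adjusted p 0.531). The highest was in Atpif1, the inhibitor of the ATP synthase (0.34, SE 0.22). It was lowest on saline 6 (2081) and read 3137 on saline 48 and 3113 to 3462 with IL-13.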

How the data were processed

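The authors deposited 1 table of linear-scale intensities for 12488 probe sets on 5 arrays. Which software, background correction and scaling they used is not given in the sources used here. Controls (66) were dropped. Each array was brought to the same mean after trimming 2% at each end. Values under 55.3, the 20th percentile of all arrays pooled, were raised to it before log2. A probe set was tested if at least 2 arrays exceeded 210, the pooled 40th percentile, which left 7811. The test was limma 3.58.1 (R 4.3.3) on treatment alone, adjusted over all 7811. In simulated data of this size, 25 of 50 log2 changes of 1 and 47 of 50 of 2 were recovered in this comparison, with 12 false calls. Whether these counts hold for the real arrays, where most tested subunit genes were brightest on the same saline array, was not tested. The members, the other lists and the tests were chosen with earlier results of these data known. All 5 values are printed for the muscle isoforms and their partners, for any gene past the threshold (none), for genes without overlap that differ at least 1.5-fold, for the 3 highest and 3 lowest differences, and for genes 2-fold apart in a pair. Further genes were added as examples of a complex or list after their values were seen. With 5 arrays the precision is low. Figures used matplotlib 3.10.9.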

Additional observations from a re-analysis of the deposited data

Results flagged for a closer look

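Between the pairs of title numbers 6 and 48, the difference of IL-13 minus saline had opposite signs for several results, and the change between the pairs was not tested, since each pair holds 1 array a side. The median over the 66 subunit genes was 0.33 higher at 48 than at 6 on the log2 scale. The same change was 0.35 for Cox6a2, 0.69 for Cox7a1, 0.74 for Cox8b and 0.19 for Cox4i1, which read lower after IL-13 at 6 and higher at 48. It was -0.40 for Atp5g2, which read higher at 6 and lower at 48. Some of these differences were small. At 6 and 48 the subunit median was -0.27 and 0.06, Cox6a2 -0.05 and 0.30, and Cox4i1 -0.02 and 0.17. Cox7a1 had -0.56 and 0.13, Cox8b -0.56 and 0.18, and Atp5g2 0.22 and -0.18.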

How the results depend on the processing

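No subunit gene passed under any setting tried. These were quantile normalization, no added scaling, equal medians of bright probe sets, a 10th or 40th percentile floor, no filter, a 60th percentile filter, trend and robust options, the title number as a replicate block, all member probe sets, title number 6 as a second term (added after the data were seen), and leaving out each array, where a treatment left with 1 array borrows the spread of the other. Their lowest adjusted p lay between 0.223 and 0.695, with 1 to 13 subunit genes at an unadjusted p under 0.05. Over all probe sets, 0 to 13 passed, beside 4. The median difference of IL-13 minus saline was -0.08 with quantile normalization and -0.10 with the replicate block over the 4 arrays of 6 and 48. It ranged from -0.31 to 0.04 leaving out 1 array. Same-numbered arrays deviated together only weakly (r = 0.13 over tested probe sets, which are not independent), and the labels do not say that numbers pair arrays. The median of saline 48 minus saline 6 ranged from -0.47 to -0.29 over scalings and floors, and was -0.41 without the assembly factors. At a fold of 1.5, 5 subunit genes were apart at title number 6, 1 at 48 and 16 between the saline arrays. These counts were 1, 0 and 0 at a fold of 2. All 16 were lower on saline 48. Of the 5980 genes tested, 743 were at least 1.5-fold higher and 546 lower at 6, and 339 and 331 at 48. Between the saline arrays, 750 were that much higher and 504 lower on saline 48. The difference of Cox4i1 was -0.01 with quantile normalization and that of Atp5g2 0.00 with title number 6 as a second term. Leaving out 1 array gave -0.13 to 0.14 for Cox4i1 and -0.14 to 0.16 for Atp5g2 (-0.05 and -0.02 without IL-13 6). It gave 0.00 to 0.23 for Cox6a2, -0.52 to 0.12 for Cox7a1, -0.65 to 0.16 for Cox8b, -0.69 to 0.01 for Cox6a1, -0.53 to 0.04 for Cox7a2 and -0.01 to 0.56 for Ndufa2. Where a sign turned, the cause was not tested.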
